A study of Mus musculus with 4 samples.

Results

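Neuropeptide Y (Npy), agouti-related peptide (Agrp), pro-opiomelanocortin (Pomc), cocaine- and amphetamine-regulated transcript (Cartpt), hypocretin or orexin (Hcrt) and melanin-concentrating hormone (Pmch) are the 6 feeding and arousal peptide genes described here. They were chosen by name, as the probes whose gene name in the deposited table, in any letter case, is 1 of these 6. Each had 1 probe, so that 6 probes of 25697 were taken, and all 6 passed the filter on dim probes that left 14199. The samples came from hypothalamus of C57Bl/6J mice aged 12 weeks and killed at about circadian time 6 (CT6). Salt mice received 325 uL of 2 M NaCl and control mice received vehicle (PBS), and in both groups water was withheld until death 2 h later. From each of 2 salt and 2 control samples, ribosomes were captured by immunoprecipitation (IP) with the antibody pS6 244/247, which recognises a phosphorylated form of the ribosomal protein S6. RNA without IP served as the input of the same sample, which gave 8 Illumina BeadArrays. Since no label tells single mice from pools, p-values measure only the spread between these samples, which may be technical.

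The arcuate nucleus holds a well studied pair of opposed feeding populations. AgRP neurons make Npy and Agrp and promote feeding when energy stores are low, and POMC neurons make Pomc, often with Cartpt, and restrain it through melanocortin receptors, which the Agrp product blocks. In the lateral hypothalamus, Hcrt neurons sustain wakefulness, and Pmch neurons, many of which also make Cartpt, promote feeding and sleep. Phosphorylation of S6 follows neuronal activity through kinase pathways, so the IP takes up ribosome-bound mRNA preferentially from cells with more phosphorylated S6. Since these are bulk tissue samples, fewer cells of a type and less RNA per cell cannot be told apart.

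The arrays detected 12259 to 13808 probes each, at a detection p under 0.01. Probes for the hypothalamic genes Nkx2-1, Avp and Oxt passed the filter, whereas the mainly cortical glutamate transporter gene Slc17a7 was undetected on all 8 arrays. Of 11 pituitary genes listed as markers because Pomc is also made in that gland, 10 were undetected on all 8 arrays. The growth hormone gene Gh was detected on 1 array, control input replicate 1, with an intensity of 196 against 88.1 to 133.1 on the other 7 arrays. The prolactin gene Prl stood out on the same array, with an intensity of 165.4 at a detection p of 0.01003, just short of the limit, against at most 117.7 elsewhere. The stimulus itself was visible in the activity genes Fosb and Fos, whose IP level rose in salt by 4.28 ± 0.20 and 3.15 ± 0.40 on the log2 scale (SE, n = 2 samples per group, limma, adjusted p = 4.61e-05 and 0.0225).

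Recovery of the 6 mRNAs with phosphorylated ribosomes was first compared with their share of total RNA. In control samples 4 of the 6 (Npy, Agrp, Hcrt and Cartpt) were lower in the IP than in the input and 0 were higher, while Pmch and Pomc did not pass the test. Among all probes tested, 20.1% were called lower and 19.9% higher in that comparison (limma, adjusted p under 0.05 over all 14199 probes). In salt samples 5 of 6 were lower and Pomc was higher, with 18.1% of all probes lower and 18.8% higher. Pomc passed the filter only through the 2 salt IP arrays, the group in which it was high. Npy and Agrp, each detected by 4 input arrays and 1 IP array, passed it through the input, where they were high. Nothing is read from the calls of these 3 against these shares. Over the 11291 probes detected on all 8 arrays, Cartpt, Hcrt and Pmch remained. Of these, 3 were lower in salt and 2 in control samples, with 2513 and 2742 of all probes lower. The median log2 ratio of IP over input over all probes was -0.021 in salt and -0.033 in control samples. No median is given for the 6 genes, since Pomc, Npy and Agrp passed the filter through groups where they were high. The split of calls over all probes depends on the scaling, with 50.9% of the calls on the higher side in salt and 49.7% in control samples, 36.8% and 37.7% with median scaling, and 61.2% and 59.5% when IP and input arrays were normalized apart. Median scaling moved the median of all probes to -0.15 in salt and -0.16 in control samples. No call or direction of the 6 genes between IP and input changed under either scaling.

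**Figure D1:**
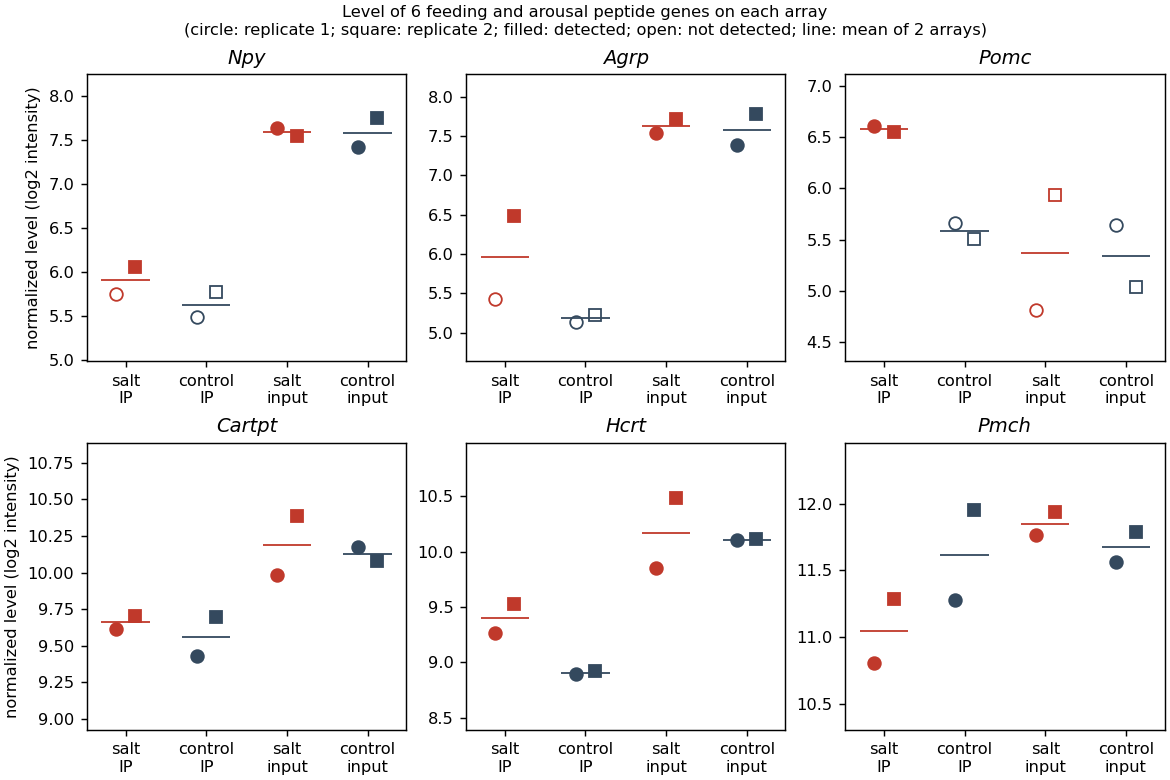
Normalized level (log2 intensity) of the 6 genes on each of the 8 arrays, salt and control IP on the left and salt and control input on the right of each panel. Circles are replicate 1 and squares replicate 2, filled symbols are detected and open symbols undetected values, and lines are means of 2 arrays. All IP values of Npy, Agrp, Hcrt and Cartpt lie below all their input values, and Pomc is detected on the 2 salt IP arrays alone.

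Npy encodes an appetite-stimulating peptide of AgRP neurons that is also made by scattered interneurons elsewhere. Its normalized log2 level was 5.75 and 6.06 on the salt IP arrays and 7.64 and 7.54 on the salt input arrays. In control samples it was 5.48 and 5.77 on the IP arrays and 7.42 and 7.75 on the input arrays. All 4 input arrays detected Npy, but only 1 of the 4 IP arrays did, that of salt replicate 2. In salt samples the IP was thus lower than the input by a log2 ratio of -1.69 ± 0.17, which is 3.22-fold (limma, adjusted p = 0.00163). That fold takes the undetected IP value of salt replicate 1 as it stands, so it is no bound. In control samples, where neither IP array detected Npy, the IP was at least 3.37-fold lower (log2 ratio -1.96 ± 0.17, adjusted p = 0.000821). Here "at least" means that an undetected IP value was raised to the lowest detected signal of its array.

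Agrp, which encodes the natural antagonist of melanocortin receptors and marks the same arcuate neurons, behaved alike. Its log2 level was 5.43 and 6.48 on the salt IP arrays and 7.54 and 7.72 on the salt input arrays, and 5.14 and 5.23 on the control IP arrays and 7.38 and 7.78 on the control input arrays. Again the IP array of salt replicate 2 was the only IP array that detected it. The IP over input ratio was -1.67 ± 0.22 on the log2 scale in salt samples, or 3.18-fold lower (limma, adjusted p = 0.0026). This fold, too, takes the undetected IP value of salt replicate 1 as it stands and is no bound. In control samples Agrp was at least 3.36-fold lower in the IP (log2 ratio -2.40 ± 0.22, adjusted p = 0.000866). The sizes for these dim IP signals rest on the background correction. In the deposited ratios, which have none, the log2 ratios were -0.84 in salt and -1.02 in control samples for Npy, and -0.84 in salt and -1.21 in control samples for Agrp, with both calls kept in each group.

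Over the 8 arrays, the profiles of Npy and Agrp were compared, although 3 of the 4 IP values of each were undetected and so compare values at background. The root mean square difference between their log2 levels, each centred on its own mean, was 0.29, against a median of 0.92 between Npy and all other genes and 1.08 between Agrp and all other genes. The 3 genes closest to Npy by that measure were Ermn (0.13), Cwc15 (0.21) and Enkur (0.21), and those closest to Agrp were Rsrp1 (0.30), Ermn (0.30) and 1700016K19Rik (0.30). These likenesses are descriptions over 8 arrays that share 4 samples.

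Hcrt, the precursor gene of both orexins, was detected on all 8 arrays. Its log2 level was 9.27 and 9.53 on the salt IP arrays, against 9.85 and 10.48 on the salt input arrays. In control samples the IP arrays gave 8.89 and 8.92 and the input arrays 10.10 and 10.12. No IP value reached any input value in either group. The log2 ratio of IP over input was -0.77 ± 0.16 (1.70-fold lower) in salt samples and -1.20 ± 0.16 (2.30-fold lower) in control samples (limma, adjusted p = 0.0107 and 0.00203). The genes of most alike profile were Qpct (0.09), Htr1a (0.11) and Tmem59l (0.12). Qpct encodes glutaminyl cyclase, the enzyme that forms the amino-terminal pyroglutamate found on some neuropeptides.

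Cartpt, whose peptides reduce food intake, had the smallest called deficit. Its log2 level was 9.61 and 9.71 on the salt IP arrays and 9.99 and 10.39 on the salt input arrays, and 9.43 and 9.70 on the control IP arrays and 10.17 and 10.08 on the control input arrays. The ratio was -0.53 ± 0.17 in salt samples and -0.57 ± 0.17 in control samples, or 1.44-fold and 1.48-fold lower (limma, adjusted p = 0.046 and 0.0342). Both calls stood near the threshold and were lost with no filter on dim probes (adjusted p = 0.0692 and 0.053). The salt call was also lost without the pairing of IP and input (0.0556), without salt replicate 2 (ratio -0.37, adjusted p = 0.18) and without either control replicate (0.0854 each). The control call was lost without control replicate 1 (-0.39, 0.407) and without control replicate 2 (-0.75, 0.142). A further probe carries the older symbol CART, which RefSeq lists as a synonym of Cartpt alone, and lies outside the rule by name. It gave -0.53 ± 0.16 in salt samples (adjusted p = 0.0377) and -0.46 ± 0.16 in control samples (0.0551), and its profile differed from that of the Cartpt probe by a root mean square of 0.076. The genes of most alike profile to Cartpt were Bcl11a (0.065), Tmed2 (0.075) and BC032265 (0.077), the last detected on only 3 of 8 arrays.

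Pmch, the precursor gene of melanin-concentrating hormone, was lower in the IP of salt samples and did not pass in control samples. Its log2 level was 10.81 and 11.29 on the salt IP arrays, against 11.76 and 11.94 on the salt input arrays. On the control IP arrays it was 11.28 and 11.96, against 11.56 and 11.79 on the control input arrays. The ratio was -0.80 ± 0.18 in salt samples (1.74-fold lower, limma, adjusted p = 0.0124) and -0.062 ± 0.18 in control samples (adjusted p = 0.806), where replicate 1 lay at -0.29 and replicate 2 at 0.16. That Pmch passed in one group and not in the other is not by itself a difference between the groups, which is tested below. Genes of alike profile included Tnpo3 (0.13) and Tacr1 (0.16).

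Pomc, the precursor of the melanocortins and of beta-endorphin, gave dim signals. Its log2 level was 6.61 and 6.55 on the salt IP arrays and 4.82 and 5.93 on the salt input arrays. On the control arrays it was 5.67 and 5.51 in the IP and 5.64 and 5.04 in the input. Only the 2 salt IP arrays detected it, so that Pomc passed the filter through the group in which it was high. In salt samples it was at least 1.34-fold higher in the IP than in the input (log2 ratio 1.20 ± 0.27, limma, adjusted p = 0.0126), and in control samples neither was detected. Since the filter let Pomc in through the salt IP, nothing is read from this direction or call. The salt ratio was 1.79 in replicate 1 and 0.61 in replicate 2, and the call was lost without salt replicate 1 (adjusted p = 0.0532). The log2 ratio was 0.60 in the deposited ratios. The genes of most alike profile were Zfp26 (0.26), Ints6 (0.27) and Tfpi (0.27), against a median of 0.66 over all other genes. Only 2 of the 8 Pomc values were detected, so these likenesses compare mostly values at background.

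**Figure D2:**
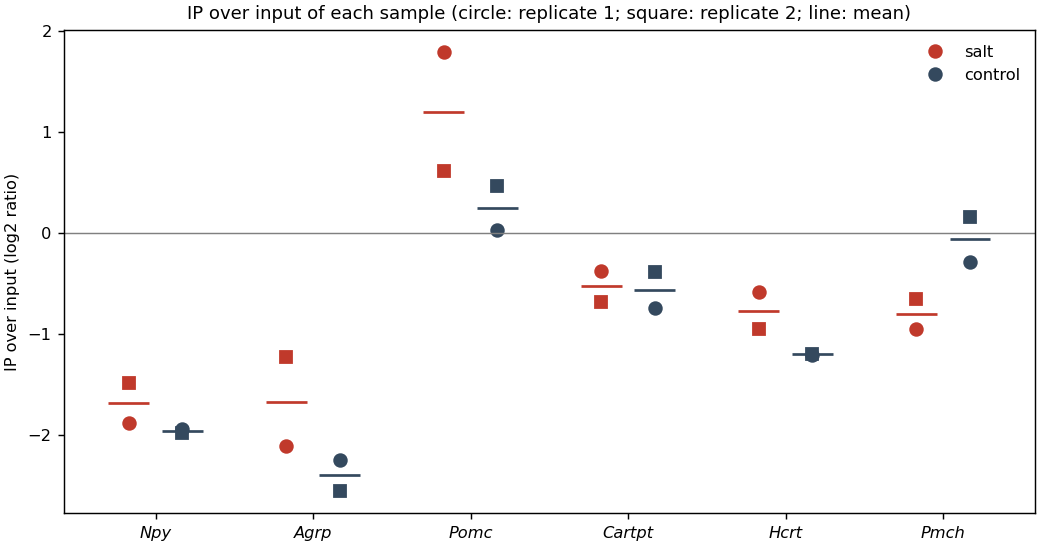
IP over input (log2 ratio) of each of the 4 samples for the 6 genes, salt to the left of control, with circles for replicate 1, squares for replicate 2 and lines for means. Npy and Agrp lie between -2.56 and -1.23, and both salt samples lie above both control samples for Npy, Agrp, Pomc and Hcrt and below them for Pmch.

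Whether salt changed the recovery of these mRNAs was asked of the IP over input ratio, salt against control. None of the 6 passed (limma, adjusted p = 1 for each), and 0% of all probes were called in either direction. Of the 6, 2 had an unadjusted p under 0.05 (Pomc and Pmch), as did 2.73% of all probes. Pomc passed the filter only through the salt IP, so that nothing is read from its p. Both salt samples lay above both control samples for 4 of the 6 (Npy, Agrp, Pomc and Hcrt) and below them for Pmch, while 13.7% of all probes lay wholly above and 13.1% wholly below. For Pomc the order rests on undetected values, since its 4 input and 2 control IP arrays did not detect it, and no fold or rank is given for its ratio. The control IP values of Npy and Agrp were undetected as well, as were their IP values in salt replicate 1.

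Pmch was the only gene of the 6 with a ratio lower in salt, by a log2 difference of -0.74 ± 0.25 (unadjusted p = 0.0196 in limma). Its ratios, as IP over input, were 0.52 and 0.64 in salt samples and 0.82 and 1.12 in control samples. The difference ranged from -0.97 to -0.52 when 1 sample was left out, and was -0.68 in the deposited ratios. All 8 arrays detected Pmch, so that this value does not rest on dim signal.

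For Agrp the ratios were 0.23 and 0.43 in salt samples and 0.21 and 0.17 in control samples, a log2 difference of 0.73 ± 0.32. Salt replicate 2 carried most of it: the difference was 0.29 if it was left out and 1.17 if the other salt sample was. With the undetected control IP values raised to the lowest detected signal, the Agrp fold was 1.06. It is no bound, since the IP value of salt replicate 1 was undetected too. For Npy the ratios were 0.27 and 0.36 in salt samples and 0.26 and 0.25 in control samples, a difference of 0.27 ± 0.24. That difference was 0.073 if salt replicate 2 was left out. With control IP values raised in the same way, the Npy fold was 1.05, which is no bound for the same reason. For Hcrt they were 0.67 and 0.52 in salt samples and 0.43 and 0.44 in control samples, a difference of 0.43 ± 0.23. The Cartpt ratios overlapped, at 0.77 and 0.62 in salt samples and 0.60 and 0.77 in control samples, with a difference of 0.039 ± 0.25 that turned to -0.014 with the mean of both probes and to -0.0046 with median scaling.

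The IP level alone, salt against control, was compared next. None of the 6 passed, among 0.134% of all probes called higher and 0% called lower (limma). Of the 6, 4 had an unadjusted p under 0.05 (Pomc, Agrp, Hcrt and Pmch), as did 5.58% of all probes. Nothing is read from that count, since Pomc passed the filter only through the salt IP and only 1 IP array detected Agrp. With undetected control IP values raised as above, and on background-corrected levels, the fold of Pomc is a bound. Those of Agrp and Npy are not, since the IP array of salt replicate 1 detected neither. The folds of these genes set no order. Pomc was at least 1.67-fold higher in salt (log2 difference 0.99 ± 0.33, adjusted p = 0.799). Agrp came to 1.09-fold (0.78 ± 0.30, 0.859) and Npy to 1.05-fold (0.28 ± 0.19, 0.999). These folds hold only on that scale: with no background correction the log2 differences were 0.44 for Pomc, 0.33 for Agrp and 0.11 for Npy. Hcrt differed by 0.49 ± 0.21 (0.89) and Cartpt by 0.099 ± 0.19 (0.999). Pmch differed by -0.57 ± 0.25 (0.89), and its salt and control IP arrays overlapped. Salt arrays lay above control arrays for Pomc, Agrp and Hcrt and below them for 0 of the 6, against 15.2% and 15.6% of all probes. Without salt replicate 2 the Agrp difference was 0.25, and it was 1.30 without salt replicate 1. Leaving out control replicate 1 or 2 or either salt sample gave -0.91 to -0.23 for Pmch. Among 11 lists of cell type markers, the summed linear levels of 2 did not overlap between IP groups. Since 15.2% of all probes lay wholly above and 15.6% wholly below, nothing is read from 2 of 11. Tanycyte markers summed to 995.5 to 1060 in salt IPs and 884.2 to 941.5 in control IPs, with 0 of 4 tested called and Rax, Dio2 and Lhx2 undetected on all 8 arrays. Microglia markers ran the other way, at 1169 to 1201 in salt IPs and 1435 to 1510 in control IPs, with 0 of 5 tested called and Csf1r and C1qa undetected on all 8 arrays. The part of either in these differences was not tested.

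**Figure D3:**
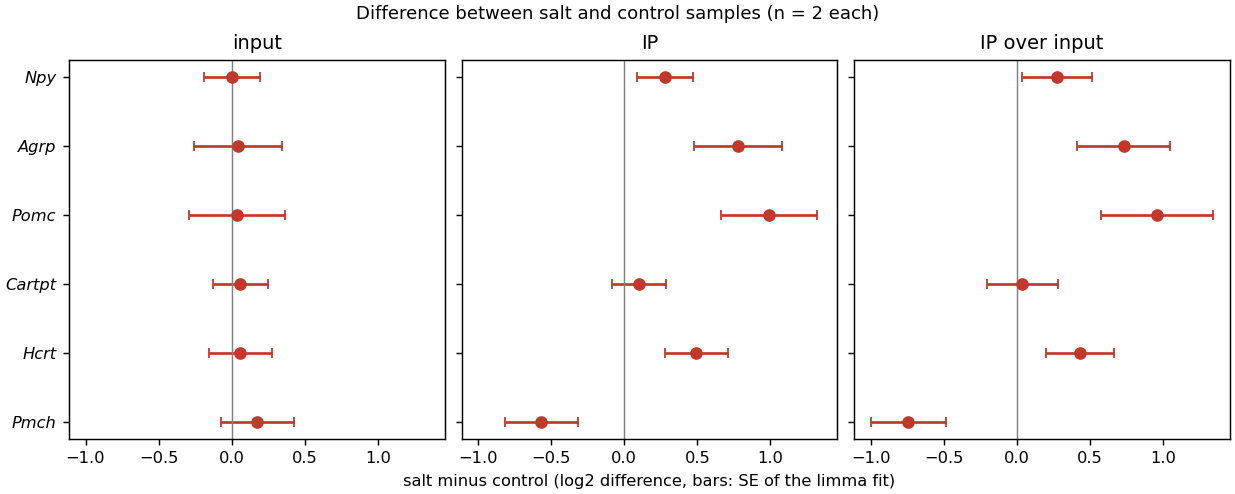
Log2 difference between salt and control samples for the 6 genes in the input, in the IP and in IP over input, with bars for the SE of the limma fit (n = 2 samples per group). Input differences lie between 0.0043 and 0.17, while in the IP and in IP over input Pmch lies left of 0 and the points for Pomc, Agrp and Npy rest in part on undetected values.

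Total RNA of the 6 genes, salt against control, asked whether their transcript levels moved within 2 h. The groups overlapped for all 6 (12.6% of all probes lay wholly above and 12.3% wholly below), and 0 passed (limma, adjusted p = 1 for each), with 0.0141% of all probes called higher and 0% lower. An unadjusted p under 0.05 was found for 0 of the 6 and 2.41% of all probes. The differences were 0.0043 ± 0.19 for Npy, 0.045 ± 0.30 for Agrp, 0.060 ± 0.19 for Cartpt, 0.058 ± 0.21 for Hcrt and 0.17 ± 0.25 for Pmch. Both groups were undetected for Pomc, which gives no fold. In the same input arrays Fosb rose by 2.97 ± 0.20 (adjusted p = 0.00129).

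The stretches upstream of 3 of these genes are shown because the input comparison reads their transcript levels at a time when genes of AP-1 proteins, Fosb and Fos, were induced in the IP. RefSeq's promoter table (GRCm38.p6) held 5 of the 6 genes (Npy, Pomc, Cartpt, Hcrt and Pmch). The 250 bases before the start are printed, 5′ to 3′ on the gene's strand, at chr10:88090822-88091071 (plus strand) for Pmch, chr11:100762932-100763181 (minus strand) for Hcrt and chr13:99900684-99900933 (minus strand) for Cartpt. Capitals mark matches, on either strand, to a TATA box (TATAAA), an AP-1 site (TGANTCA) or a cyclic AMP response element (TGACGTCA).
Pmch: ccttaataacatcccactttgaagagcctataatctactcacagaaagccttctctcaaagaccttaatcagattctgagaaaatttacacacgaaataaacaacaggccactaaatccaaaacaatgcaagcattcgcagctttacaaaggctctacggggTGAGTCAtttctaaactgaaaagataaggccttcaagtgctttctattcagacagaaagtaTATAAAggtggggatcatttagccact
Hcrt: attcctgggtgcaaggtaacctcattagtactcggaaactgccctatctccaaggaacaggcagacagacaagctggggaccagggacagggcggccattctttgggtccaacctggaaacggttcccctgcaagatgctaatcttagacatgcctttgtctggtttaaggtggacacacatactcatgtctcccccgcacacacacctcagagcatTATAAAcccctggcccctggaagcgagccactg
Cartpt: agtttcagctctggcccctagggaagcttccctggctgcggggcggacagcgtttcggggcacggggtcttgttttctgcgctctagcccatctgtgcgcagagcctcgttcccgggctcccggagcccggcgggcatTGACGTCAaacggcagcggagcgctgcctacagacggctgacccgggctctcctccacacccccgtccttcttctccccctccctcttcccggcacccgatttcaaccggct
Pmch held an AP-1 match beginning 88 bases before the start, which 6.75% of all 32851 promoters in the table held in this window, and a TATA box at 27 bases. Hcrt held a TATA box at 33 bases, as did Pomc at 25 bases, a motif found in 12.4% of promoters. Cartpt held a cyclic AMP response element at 112 bases, found in 1.55%, and Npy held 0 of the 3 motifs. These matches describe letters only.

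Among 17 other hypothalamic neuropeptide genes that could be tested, of 30 listed, 10 were lower and 3 higher in the IP of salt samples, where 18.1% of all probes were lower and 18.8% higher. In control samples 12 were lower and 3 higher, with 20.1% of all probes lower and 19.9% higher. A gene can pass the filter through its input arrays alone, as Npy and Agrp nearly did, and such genes were not counted apart. Nothing is therefore read from the counts of this or any other list against these shares. Their median log2 ratio was -0.65 in salt and -1.11 in control samples. Oxt, the oxytocin gene, was at -0.59 ± 0.15 in salt and -1.86 ± 0.15 in control samples, and Gal, the galanin gene, at -1.04 ± 0.17 and -1.79 ± 0.17 in the same order. Trh, the thyrotropin-releasing hormone gene, was at -1.41 ± 0.20 in salt and -1.18 ± 0.20 in control samples. Vip, a peptide gene of the suprachiasmatic nucleus, was higher in the IP, at 1.43 ± 0.16 in salt and 1.52 ± 0.16 in control samples. Avp, the vasopressin gene, was the 1 gene of these 17 whose IP level rose in salt (3.41 ± 0.36, limma, adjusted p = 0.0127; ratio difference 3.26 ± 0.32, adjusted p = 0.118), at a ratio of 1.40 ± 0.23 in salt and -1.86 ± 0.23 in control samples.

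**Figure D4:**
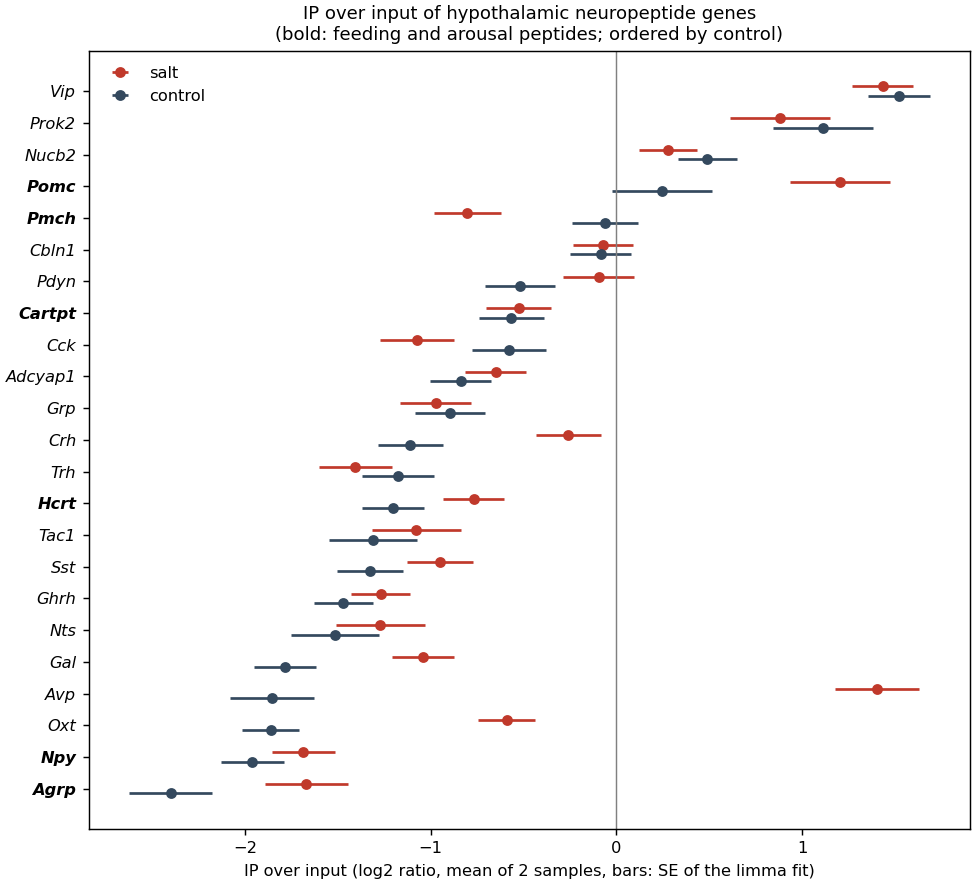
IP over input (log2 ratio, mean of 2 samples, bars for the SE of the limma fit) of the 6 genes, in bold, and of 17 other neuropeptide genes, salt above control in each row, ordered by the control value. Avp has the widest gap between salt and control, and the control points of Agrp, Npy and Pomc rest on undetected IP values, so that their places in the order are not set.

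Of 16 genes listed for receptors and receptor partners of these peptides, 6 could be tested, and 0 passed between salt and control in the input, the IP or the ratio. The probes for Npy5r, Mc3r, Mc4r, Hcrtr1 and Mchr1, through which several of the peptides act, were undetected on all 8 arrays, which says only that these probes gave no signal above background. Hcrtr2, the orexin receptor needed for stable wakefulness, was lower in the IP, at -0.68 ± 0.15 in salt and -0.76 ± 0.15 in control samples (limma, adjusted p = 0.0134 and 0.00767). Atrn was higher, at 0.49 ± 0.17 in salt (not passed) and 0.62 ± 0.17 in control samples (limma, adjusted p = 0.0216). Its input was undetected, so nothing is read from that call. Of the 6, 1 was lower and 0 higher in salt, and 1 lower and 1 higher in control samples. Shares of all probes were 18.1% lower and 18.8% higher in salt, and 20.1% and 19.9% in control samples. Npy1r stood at -0.27 ± 0.15 in salt and -0.33 ± 0.15 in control samples and passed in neither. The smallest p-values of the ratio between salt and control belonged to Gpr83, at a difference of -0.33 ± 0.22, and Npy2r, at 0.21 ± 0.26.

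Of 9 tested genes that process peptide precursors, 5 were lower and 1 higher in the IP of salt samples, and 4 were lower and 1 higher in that of control samples. The shares of all probes were 18.1% lower and 18.8% higher in salt, and 20.1% and 19.9% in control samples. Scg5, which encodes the chaperone 7B2 of the convertase PC2, was at -1.20 ± 0.19 in salt and -1.34 ± 0.19 in control samples (limma, adjusted p = 0.00369 and 0.00213). Qpct was at -0.86 ± 0.15 in salt and -1.16 ± 0.15 in control samples, and Pam, the amidating enzyme gene, at -0.57 ± 0.18 and -0.67 ± 0.18. Furin, a protease gene of many cell types, was higher in the IP, at 0.59 ± 0.15 in salt and 0.77 ± 0.15 in control samples. None passed between salt and control, where Pcsk1, the convertase gene that cleaves Pomc, differed by 0.78 ± 0.26 in the ratio and Prcp, a peptidase gene, by -0.69 ± 0.24 (limma, adjusted p = 1 each). The Prcp value rests in part on undetected arrays. So does its lower call in salt samples, where the IP was at least 1.12-fold below the input. Of 10 granin and dense-core vesicle genes, 1 was lower and 0 higher in each group (Ptprn, at -0.66 ± 0.16 in salt and -0.73 ± 0.16 in control samples). With 10 genes, a count of 1 cannot be told from the shares of all probes.

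Of 13 testable transcription factor genes of arcuate and lateral hypothalamic neurons, 4 were lower in the IP of salt samples and 8 in that of control samples, and 0 were higher in either. Among all probes, 18.1% were lower and 18.8% higher in salt, and 20.1% and 19.9% in control samples. Here too a gene can pass the filter through its input arrays alone, so nothing is read from these counts. Isl1, needed for Pomc expression in development, was at -0.80 ± 0.20 in salt and -1.05 ± 0.20 in control samples, and Nkx2-1, a regional factor of the ventral hypothalamus, at -0.81 ± 0.19 and -1.04 ± 0.19. None passed between salt and control, where Nhlh2 differed by 0.68 ± 0.22 and Dlx2 by 0.45 ± 0.22 in the ratio (limma, adjusted p = 1 each). Markers of cell types differed in direction between IP and input, and the same shares of all probes stand beside their counts. With lists this short, counts near those shares are not read as results. The summed linear level of 7 measured neuron markers was 4978 to 6218 in salt IPs and 7656 to 8218 in salt inputs, and 5110 to 5868 in control IPs and 7757 to 8353 in control inputs. Of these 7, 2 were lower in the IP in salt and 3 in control samples. GABA and glutamate neuron markers did not share this, with sums of 10280 to 12030 in salt IPs and 10960 to 10990 in salt inputs. In control samples they summed to 11040 to 11260 in IPs and 10650 to 11170 in inputs, with 1 of 4 tested lower in each group. Oligodendrocyte markers were lower for 2 of 8 in salt and 3 of 8 in control samples, and microglia markers for 3 of 5 and 1 of 5. Ependymal markers summed to 852 to 1139 in salt IPs and 1793 to 2011 in salt inputs, and to 835 to 873 in control IPs and 1818 to 1902 in control inputs, with 4 of 6 lower in salt and 3 of 6 in control samples. Of 4 tested endothelial markers, 2 were higher in the IP in salt and 1 in control samples, and both tested blood markers were higher in each group. Of 8 astrocyte markers, 0 were called lower in either group and 1 was called higher in salt samples. Their log2 ratios lay below 0 for 5 of 8 in salt and 6 of 8 in control samples. The part of any of these cell types in the ratios of the 6 peptide genes was not tested.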

How the data were processed

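Amplification used the Ovation system and labelling used biotin, per the labels' protocols. The submitters' processing notes name GenomeStudio. The authors deposited linear probe intensities with a detection p-value for each probe and array, per the file headers, without subtracted background, and the IP/input ratio of each sample, which matched IP intensity over input intensity within a relative 1.6e-09.

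The neqc steps of limma 3.58.1 (R 4.3.3) removed background with an offset of 16, brought the 8 arrays to common quantiles and took log2. The filter kept 14199 of 25697 probes (10182 genes), those detected at p under 0.01 by 2 arrays or more. For the ratio, limma's lmFit and eBayes took the log2 IP minus input values for 2 group means (2 residual degrees of freedom), and the levels of the 8 arrays for 4 group means (4 degrees of freedom). Tests were two-sided, adjusted by Benjamini-Hochberg over 14199 probes at 0.05. The fits were tested on simulated data. Errors are SE, n is 2 samples per group, and the number of arrays limits the precision. Of the probes, 20736 carried a current RefSeq symbol, 3841 were renamed through a synonym and 1120 kept the file's name. A gene with several probes is its brightest.

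The 6 genes and all lists were chosen with earlier results of these data known. The rule for named genes took all 6, up to 6 genes per list that passed with the largest change, or the smallest p where none passed, and the 3 genes of most alike profile; a few list members are named besides for their function, and some genes that the rule takes are not reported here. Alternatives were the background correction, scaling, filter, empirical Bayes settings, pairing, probe choice, deposited ratios and leaving out each replicate.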

Additional observations from a re-analysis of the deposited data

How the results depend on the processing

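With 2 samples per group and dim IP signals for Npy, Agrp and Pomc, sizes are less certain than directions. The number of the 6 genes called was 0 under every alternative run for the 3 comparisons of salt with control. Between IP and input it was 6 in salt and 4 in control samples. It became 3 and 2 over the probes detected on all 8 arrays, since Npy, Agrp and Pomc are then not tested. With no filter on dim probes it was 5 and 3, and without the pairing of IP and input 5 and 4. Over alternatives that left out 1 replicate it was 5 in salt samples each time and ranged from 3 to 4 in control samples. Replicate numbers do not pair salt with control samples by the labels; deviations of samples with the same number correlated at 0.01 for the ratio, 0.14 for the IP and -0.23 for the input. The fit with the number as a replicate block called 0 of the 6 genes for the ratio, IP and input, and 1 probe in all for the ratio (0 without the block) and 1 for the input (2 without it).

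Values near 0 changed sign without being called. For the input difference, Pomc was -0.0069 with no background correction and -0.046 with normexp without negative controls. Leaving out each replicate gave input differences of -0.52 to 0.59 for Pomc, -0.16 to 0.17 for Npy, -0.15 to 0.24 for Agrp, -0.14 to 0.26 for Cartpt and -0.26 to 0.37 for Hcrt. For the ratio difference, Cartpt was -0.0046 with median scaling, -0.014 with the mean of both probes and -0.14 to 0.22 over left-out replicates, and its IP difference ranged from -0.036 to 0.23. The control ratio of Pmch ranged from -0.29 to 0.16 over left-out replicates and was -0.45 with median scaling. The causes were not tested.

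Over all probes, IP calls between salt and control numbered 19, against 2 to 21 over the other settings and 1 to 5 without a replicate. Input calls numbered 2 (0 to 7, and 0 to 3), ratio calls 0 (0 to 1, and 0 to 16 of them without salt replicate 1). IP against input gave 5677 calls in control samples, 1497 without control replicate 1 and 1063 without control replicate 2.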

Other observations

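Of 15 tested genes, of 21 listed, by which feeding neurons sense hormones and nutrients, 5 were higher and 3 lower in the IP of salt samples, and 3 were higher and 3 lower in that of control samples (limma, adjusted p under 0.05). Among all probes 18.8% were higher and 18.1% lower in salt, and 19.9% and 20.1% in control samples, so that the control counts are at the share of all probes. Jak2, the kinase gene through which the leptin receptor signals, was higher in the IP by 1.50 ± 0.16 on the log2 scale in salt and 1.40 ± 0.16 in control samples. The insulin receptor gene Insr stood at 0.51 ± 0.16 in salt and 0.77 ± 0.16 in control samples. Htr2c, a serotonin receptor gene of POMC neurons, was lower in the IP, at -1.06 ± 0.18 in salt and -1.13 ± 0.18 in control samples, and Calcr, the calcitonin receptor gene, at -1.02 ± 0.24 and -1.16 ± 0.24. None of the 15 passed between salt and control in the ratio, the IP or the input.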
